A study of Mus musculus with 6 samples.

Results

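The opposite-strand RNAs described here are transcripts whose symbol is that of another gene with the ending os, in some cases followed by a digit. A member is a gene measured by a probe set whose platform symbols all resolve to that 1 gene, and whose symbol without the ending is itself a symbol of the platform annotation. The rule uses names only and no measured value. It gave 164 genes among the 30702 named genes of the array, and for each the probe set with the highest mean over the 6 arrays was kept. RefSeq types 149 of them as lncRNA, 4 as antisense RNA, 10 as protein-coding and 1 as a transcribed pseudogene, so the label of a lncRNA holds for 153. The sense gene could be measured under a single name in 155 pairs, which hold 150 distinct sense genes, because 5 sense genes (Bcas3, Grip1, Ptgs2, Rab11fip4 and Rsf1) each have 2 members. The remaining 9 members are described without their sense gene.

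The livers came from male mice aged 8 weeks, with 1 Affymetrix array for each of 6 samples. In the HFD-inulin group (3 arrays) the mothers had been treated with inulin, a fermentable plant fibre, and in the HFD group (3 arrays) they had been on a high-fat diet (HFD). Whether the inulin-treated mothers were on the high-fat diet too, as the name of their group implies, is not spelled out. Strain, litters and what the offspring ate are not stated, and p-values measure only the spread between these samples.

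An opposite-strand RNA is read from the DNA strand that faces its sense gene. Such RNAs can overlap the sense gene, sit inside one of its introns, or start beside it and run away from it. Some antisense RNAs are known to silence or to sustain their neighbour, as at imprinted loci, while others share a start region with the sense gene and accompany its transcription. Many are made at low levels.

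All values are the authors' log2 signals, given per array in the order of the replicate numbers, and a difference is the HFD-inulin mean minus the HFD mean on that scale. The arrays fell into a pair of sets that cross the groups, known from an earlier look at these data. The mean of chromosome Y probe sets that share an identical profile came to 1.91, 1.60 and 3.15 in HFD-inulin arrays, against 1.34, 3.24 and 2.99 in HFD arrays. The arrays under 2 (HFD-inulin 1 and 2, HFD 1) are called low-signal here and the others high-signal. Hepatocyte markers were bright in every array, with 8 of 8 measured and gene means from 8.50 to 11.5.

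In the RefSeq tables the members lie opposite their sense genes wherever both strands are listed. That was so for 112 of the 164, and 0 of these were on the same strand. Of the 112, 42 overlapped the sense gene in part, 38 lay within its span, 28 were head to head with it and 4 were tail to tail. Head to head here means running away from the sense gene without overlap, at any distance. For Zmiz1os1 the starts were 52399 bases apart. For 51 members the strand was not listed and 1 was not placed, and there the orientation rests on the name. Over all members, 115 had a span that overlapped that of the sense gene. Whether the labelling of these arrays kept the strand is not given in the sources used here, so RNA from the facing strand cannot be told apart from a member where their transcribed parts overlap.

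The start regions are described here by their letters, with no test. The windows used are those of RefSeq (GRCm38.p6), from 250 bases before a start to 50 bases after it, with the first listed window of each gene. The 134 members with a window had a median of 8 CG dinucleotides, against 20 in 129 sense genes and 7 in all 27025 windows. In 24 members the start lay within 250 bases of the start of the sense gene and on the other strand, and their median was 25.5. The 88 members that start farther away had a median of 5.5. The letters TATAAA, sought on both strands, were found in 13 of the 134 members (9.70%) and in 14.2% of all windows. They were found in 0 of the 24 that start near the sense gene and in 7 of the 88 others (7.95%).

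A pair of windows is shown for members that start beside their sense gene, since there 1 stretch of DNA lies between both starts. Capitals mark the bases between the start of the opposite-strand RNA and that of its sense gene. Ccpg1os starts 128 bases from Ccpg1, which encodes an ER-phagy receptor, and Fam120aos starts 52 bases from Fam120a, which encodes an RNA-binding protein. The window of Ccpg1os is chr9:72985327-72985626 on the minus strand and holds 33 CG dinucleotides, and that of Fam120aos is chr13:48967862-48968161 on the plus strand and holds 54.
Ccpg1os: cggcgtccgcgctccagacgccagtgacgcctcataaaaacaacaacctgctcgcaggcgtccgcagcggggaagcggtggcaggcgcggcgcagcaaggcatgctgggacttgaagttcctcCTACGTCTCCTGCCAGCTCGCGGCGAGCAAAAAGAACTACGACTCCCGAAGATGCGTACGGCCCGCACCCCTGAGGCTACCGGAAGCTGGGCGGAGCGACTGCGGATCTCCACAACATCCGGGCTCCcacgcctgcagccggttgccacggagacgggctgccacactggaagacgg
Fam120aos: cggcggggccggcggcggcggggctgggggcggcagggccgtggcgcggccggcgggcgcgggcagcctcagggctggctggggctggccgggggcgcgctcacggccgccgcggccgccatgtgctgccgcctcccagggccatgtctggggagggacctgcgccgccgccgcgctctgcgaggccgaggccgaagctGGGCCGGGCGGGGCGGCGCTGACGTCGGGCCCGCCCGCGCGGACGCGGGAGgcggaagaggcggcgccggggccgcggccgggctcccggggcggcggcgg

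The Hnf4a locus is shown because its sense gene had the smallest p of all the sense genes. Hnf4a encodes HNF4 alpha, a nuclear receptor on which the identity of liver cells depends. RefSeq lists 2 starts for Hnf4a, and Hnf4aos starts between them on the other strand. The upstream Hnf4a start lies inside the span of Hnf4aos, 34864 bases from its start, and the downstream one lies outside it, 5434 bases away. In mice the downstream start belongs to the promoter known as P1, the main one of adult hepatocytes, and the upstream start to P2. Capitals mark the first 50 transcribed bases. The windows are chr2:163541672-163541971 on the minus strand for Hnf4aos, and chr2:163506607-163506906 and chr2:163546905-163547204 on the plus strand for the upstream and downstream starts of Hnf4a. Each of the 3 holds 4 CG dinucleotides.
Hnf4aos: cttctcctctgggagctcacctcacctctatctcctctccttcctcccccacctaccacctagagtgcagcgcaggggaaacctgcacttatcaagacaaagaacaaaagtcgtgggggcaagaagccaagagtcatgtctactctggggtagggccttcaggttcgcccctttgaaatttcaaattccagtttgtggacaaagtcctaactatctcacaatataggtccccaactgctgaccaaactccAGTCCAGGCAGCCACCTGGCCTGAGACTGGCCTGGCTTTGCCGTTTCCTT
Hnf4a upstream start: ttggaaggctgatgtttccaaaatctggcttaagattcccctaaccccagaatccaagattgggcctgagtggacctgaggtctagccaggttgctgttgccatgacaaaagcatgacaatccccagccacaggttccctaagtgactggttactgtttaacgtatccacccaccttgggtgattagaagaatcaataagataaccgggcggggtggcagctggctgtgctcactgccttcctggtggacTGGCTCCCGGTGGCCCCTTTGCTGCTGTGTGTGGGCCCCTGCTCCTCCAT
Hnf4a downstream start: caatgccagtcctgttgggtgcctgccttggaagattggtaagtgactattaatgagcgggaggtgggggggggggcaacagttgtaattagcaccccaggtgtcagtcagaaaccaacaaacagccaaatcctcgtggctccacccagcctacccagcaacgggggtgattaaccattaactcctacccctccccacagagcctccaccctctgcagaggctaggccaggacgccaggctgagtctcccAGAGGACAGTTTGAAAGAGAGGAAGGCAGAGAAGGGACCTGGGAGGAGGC

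Few opposite-strand RNAs reached an unadjusted p under 0.05, and the members' groups were apart about as often as those of any probe set. With limma, 0 of the 164 passed an adjusted p of 0.05, as did 0 of all 65956 probe sets (0.0%). At an unadjusted p under 0.05 there were 2 members (1.22%), 0 higher and 2 lower. The share was 5.15% of all probe sets (2.52% higher, 2.64% lower). It was 5.65% of the 30702 named genes (3.42% higher, 2.22% lower) and 2.66% of the 3344 lncRNA genes (0.478% higher, 2.18% lower). The difference between these shares was not tested. By ordinary least squares, with no shared estimate of the spread, the order turned, with 10 members (6.1%) against 4.6% of all probe sets. The direction of such small shifts depends on the scaling of the arrays. With array medians set equal, 3 members had an unadjusted p under 0.05, 2 higher and 1 lower, and of the 3073 such probe sets 68.3% were higher, against 48.8% in the deposited scale. The 3 were Ctrcos, Asb17os and Fam154aos (now Saxo1os, named after its values were seen), also after quantile normalization. The median difference was -0.019 over the members, -0.026 over lncRNA genes and -0.016 over all probe sets. With array medians set equal it was 0.013 over the members and 0.016 over all probe sets. The groups did not overlap in 17 members (10.4%), in 10.3% of all probe sets, in 11.5% of named genes and in 10.2% of lncRNA genes. With single arrays left out the count of 2 ran from 1 to 6. It was 6 (3.66%) without the second or the third HFD-inulin array, against 3.92% and 9.89% of all probe sets. Without the first it was 1 (0.61% against 3.98%). Omitting an HFD array gave 6 for array 1 (3.66% against 6.12%), 2 for array 2 (1.22% against 3.18%) and 4 for array 3 (2.44% against 3.36%).

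The spread of the members was narrow. Their differences ran from -0.37 (Ctrcos) to 0.45 (Peg3os), with a median SE of 0.081. The 95% interval of the difference lay within 1.5-fold either way (0.585 on the log2 scale) in 161 of 164 members (98.2%), in 97.3% of lncRNA genes, in 88.9% of named genes and in 89.2% of all probe sets. The exceptions were Peg3os, Ctrcos and Pla2g10os. In 154 members all 6 arrays lay within 0.5 of each other. Many signals were low on the scale of the array, and the files hold no detection call. The members' means ran from 0.43 to 4.59, 53 were under 1 and 77 between 1 and 2, while the median probe set was at 1.22. A total of 81 members (49.4%) were at or above that median, as were 41.6% of lncRNA genes and 64.9% of named genes. Of the 150 sense genes 124 were (82.7%), against 73.1% of protein-coding genes.

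**Figure D1:**
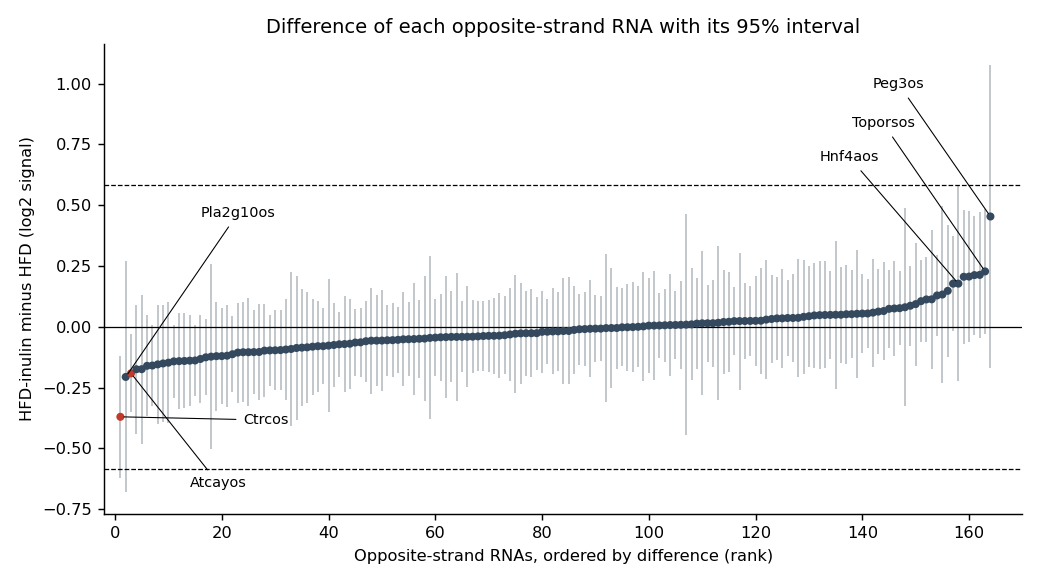
Difference (HFD-inulin minus HFD, log2 signal, vertical axis) of each of the 164 opposite-strand RNAs, ordered from lowest to highest, with 95% intervals from limma as grey lines and 1.5-fold marked by dashed lines. Red points are the 2 members with an unadjusted p under 0.05, Ctrcos and Atcayos, and the interval of Peg3os at the far right is the widest.

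Ctrcos and Atcayos were the 2 members with an unadjusted p under 0.05, and both were lower in HFD-inulin livers. Ctrcos is named for Ctrc, the locus of chymotrypsin C, a pancreatic protease, which RefSeq types as a transcribed pseudogene in this mouse assembly. Ctrcos measured 1.96, 2.15 and 1.95 in HFD-inulin arrays, against 2.20, 2.49 and 2.47 in HFD arrays. Every HFD-inulin array was below every HFD array, with a difference of -0.37 (SE 0.10, 95% interval -0.62 to -0.12, limma adjusted p = 0.902). Ctrc itself measured 2.63, 2.63 and 2.69 in HFD-inulin arrays and 2.65, 2.64 and 2.63 in HFD arrays, a difference of 0.01 (95% interval -0.13 to 0.15). The gap between Ctrcos and Ctrc thus differed by -0.38 between the groups, with an exact permutation p of 0.1 (two-sided), the smallest that 3 against 3 arrays allow. This gap, always opposite-strand minus sense, was tested in 23 named pairs, many of which were named for a difference in 1 partner, so its p is no independent evidence. It reached that p in 7 of the 23, with a smallest Benjamini-Hochberg adjusted value of 0.329. Over all 155 pairs the gap set the groups apart in 16 (10.3%), the same share as for single probe sets. The difference of Ctrcos was -0.15 within the low-signal arrays and -0.53 among the high-signal ones. Of 4 exocrine pancreas markers, 3 were measured, with gene means from 0.71 to 1.90 and 0 at an unadjusted p under 0.05. Of these Prss1, a trypsinogen gene, also had its groups apart and lower values in HFD-inulin livers, at 1.67, 1.44 and 1.65 against 1.75, 1.75 and 1.86 in HFD livers (difference -0.20, unadjusted p = 0.0550, limma). Cela3b differed by 0.07 and Cpb1 by 0.03. The markers' mean was 1.46, 1.32 and 1.47 in HFD-inulin arrays and 1.47, 1.42 and 1.46 in HFD arrays, and their part in the Ctrcos difference was not tested.

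Atcayos is named for Atcay, the gene of caytaxin, a protein of neurons. It measured 1.171, 1.276 and 1.276 in HFD-inulin arrays, against 1.497, 1.418 and 1.383 in HFD arrays. The groups did not overlap, and the difference was -0.19 (SE 0.07, limma adjusted p = 0.902). Atcay measured 2.09, 2.24 and 2.15 in HFD-inulin arrays and 2.19, 2.21 and 2.29 in HFD arrays, so its groups overlapped. These Atcayos signals are near the median probe set, and the unadjusted p of 0.0258 was above 0.05 in fits without HFD-inulin array 1 (0.0784), without HFD array 1 (0.0814) or without HFD array 2 (0.0562). It was also above 0.05 with array medians set equal (0.0771), after quantile normalization (0.0789) and within the low-signal (0.0987) and high-signal arrays (0.261).

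Of the 150 sense genes, 0 passed the adjusted threshold in limma and 5 had an unadjusted p under 0.05, 3 higher (2.0%) and 2 lower (1.33%). That is 3.33%, against 5.15% of all probe sets and 4.81% of protein-coding genes (2.55% higher, 2.26% lower). The groups did not overlap in 19 sense genes (12.7%), against 11.5% of protein-coding genes, and the interval lay within 1.5-fold in 141 (94.0%), against 90.7%. The count of 5 became 12 without HFD-inulin array 3 (8.0%, against 9.89% of all probe sets). It was 8 when HFD array 1 was omitted (5.33% against 6.12%). The 5 were Hnf4a, Il1b, Tbx3, Parva and Nudt12, and in none of them did the opposite-strand RNA reach an unadjusted p of 0.05 (0.0981 to 0.872 over the 5).

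At the Hnf4a locus the sense gene was lower in HFD-inulin livers, while the values of its opposite-strand RNA overlapped between the groups. Hnf4a measured 6.86, 6.86 and 6.77 in HFD-inulin arrays, against 7.38, 7.46 and 7.44 in HFD arrays, a difference of -0.60 (SE 0.06, limma adjusted p = 0.390). The arrays of each group lay close together and the groups were apart. Hnf4aos measured 2.77, 2.46 and 2.14 in HFD-inulin arrays and 2.13, 2.43 and 2.28 in HFD arrays, with overlapping groups. Its difference was 0.18 (SE 0.17, 95% interval -0.22 to 0.58, limma adjusted p = 0.922). It was 0.49 within the low-signal arrays and -0.22 among the high-signal ones, while Hnf4a was lower in both (-0.52 and -0.68). The Hnf4aos value minus the Hnf4a value was higher by 0.77 in HFD-inulin livers, at -4.37 against -5.14 in HFD livers (exact permutation p = 0.1, the smallest possible). Since Hnf4a alone set the groups apart, this p is no independent evidence. The hepatocyte marker mean was 10.03, 9.95 and 10.29 in HFD-inulin arrays, against 10.32, 10.32 and 10.29 in HFD arrays. Of the 8 markers 1 had an unadjusted p under 0.05 in limma, Cps1 (difference -0.68). Among the others, Cyp3a11 (-0.95), Ttr (-0.18), Tat (-0.17), Alb (-0.10) and Serpina1c (-0.05) were lower, and Fabp1 (0.23) and Apoa1 (0.14) were higher. Fewer cells of a type and less RNA per cell cannot be told apart in whole liver, and the part of the markers in the Hnf4a difference was not tested.

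Il1b, which encodes the inflammatory cytokine interleukin 1 beta, was higher in HFD-inulin livers. It measured 1.97, 2.36 and 2.21 in HFD-inulin arrays, against 1.59, 1.76 and 1.54 in HFD arrays, a difference of 0.55 (SE 0.12, limma adjusted p = 0.902). Il1bos stayed between 0.62 and 0.73 in all 6 arrays, with a difference of -0.01 (95% interval -0.16 to 0.13). Its mean of 0.67 lies below that of the median probe set (1.22). The gap between Il1bos and Il1b differed by -0.56 (exact permutation p = 0.1, the smallest possible), which is no independent evidence, as Il1b alone set the groups apart. Neutrophil markers averaged 1.06, 1.74 and 1.15 in HFD-inulin arrays and 1.10, 1.02 and 1.06 in HFD arrays. Their mean was highest in HFD-inulin array 2, as was Il1b. Of the 5 markers, S100a8 (0.67), S100a9 (0.38), Retnlg (0.21) and Mmp8 (0.06) were higher on average and Csf3r (-0.04) was lower, with 0 at an unadjusted p under 0.05 in limma. Csf3r had its highest value in HFD array 3 (1.82). The Il1b difference was 0.58 within the low-signal arrays and 0.56 among the high-signal ones, each with a lone array in 1 group. Of 6 Kupffer cell markers, Adgre1 (-0.32) and Timd4 (-0.32) had an unadjusted p under 0.05, both lower. The others did not, with Cd5l (-0.18) and Marco (-0.14) lower and Clec4f (0.03) and Vsig4 (0.02) higher. The part of either marker list in the Il1b difference was not tested.

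Tbx3 encodes a T-box repressor that in liver is known as a WNT target of pericentral hepatocytes. It measured 4.32, 4.27 and 4.03 in HFD-inulin arrays, against 3.97, 3.64 and 3.75 in HFD arrays, a difference of 0.42 (SE 0.11, limma adjusted p = 0.902). Tbx3os2, whose span does not overlap Tbx3, measured 1.90, 2.02 and 2.26 in HFD-inulin arrays and 1.99, 2.22 and 2.19 in HFD arrays. Its groups overlapped, with a difference of -0.08 (95% interval -0.35 to 0.19). Nudt12, a hydrolase of NADH and of NAD-capped RNA, measured 5.26, 5.34 and 5.20 in HFD-inulin arrays, against 5.15, 5.07 and 5.08 in HFD arrays, a difference of 0.17. Its unadjusted p of 0.0425 lay above 0.05 when any array but HFD-inulin 3 or HFD 1 was left out (0.0812 to 0.116). Nudt12os measured 0.89, 0.71 and 0.94 in HFD-inulin arrays and 0.92, 0.86 and 0.85 in HFD arrays, a difference of -0.03.

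In 2 of the 155 pairs the groups were apart in both members. Taken singly, the groups were apart in 10.4% of the members and in 12.7% of the sense genes. Whether 2 pairs differ from what these shares would give was not tested. Parva, which encodes the focal adhesion protein alpha-parvin, measured 5.45, 5.42 and 5.50 in HFD-inulin arrays, against 5.79, 5.64 and 5.65 in HFD arrays (difference -0.23, SE 0.07, limma adjusted p = 0.902). Parvaos had lower values in the same livers, at 0.77, 0.84 and 0.92 in HFD-inulin arrays and 0.99, 0.94 and 0.97 in HFD arrays (difference -0.13, 95% interval -0.28 to 0.03). In the other pair the members went opposite ways. Usp46os2 measured 1.69, 1.78 and 1.80 in HFD-inulin arrays, against 1.88, 1.91 and 1.90 in HFD arrays (difference -0.14, 95% interval -0.29 to 0.01). Usp46, a deubiquitinase, measured 2.55, 2.54 and 2.62 in HFD-inulin arrays, against 2.54, 2.41 and 2.44 in HFD arrays (difference 0.11, 95% interval -0.05 to 0.27). To more digits its lowest HFD-inulin value was above its highest HFD value. The gap between Usp46os2 and Usp46 differed by -0.25 (exact permutation p = 0.1, the smallest possible). That p was fixed in advance, because both members were chosen for having their groups apart and they went opposite ways.

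The pair with the largest differences in the same direction was Peg3os and Peg3, which set 2 livers apart and not the groups. Peg3 is an imprinted gene, expressed from the paternal allele, that encodes a zinc finger protein, and Peg3os overlaps its span. Peg3os measured 1.80, 2.16 and 1.17 in HFD-inulin arrays, against 1.36, 1.45 and 0.96 in HFD arrays. Peg3 measured 2.34, 2.81 and 1.38 in HFD-inulin arrays, against 1.38, 1.47 and 1.44 in HFD arrays. Arrays 1 and 2 of the HFD-inulin group stood above all others in both genes, and its array 3 was below every HFD array in Peg3 and within their range in Peg3os. The differences were 0.45 (SE 0.26) for Peg3os and 0.75 (SE 0.33) for Peg3, with a limma adjusted p of 0.902 for each. Within the low-signal arrays they were 0.62 and 1.19, and in the high-signal ones -0.03 and -0.08. Since the 2 transcribed spans overlap and the strand of the labelling is not given, the signals of the 2 probe sets cannot be told apart as separate measurements.

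**Figure D2:**
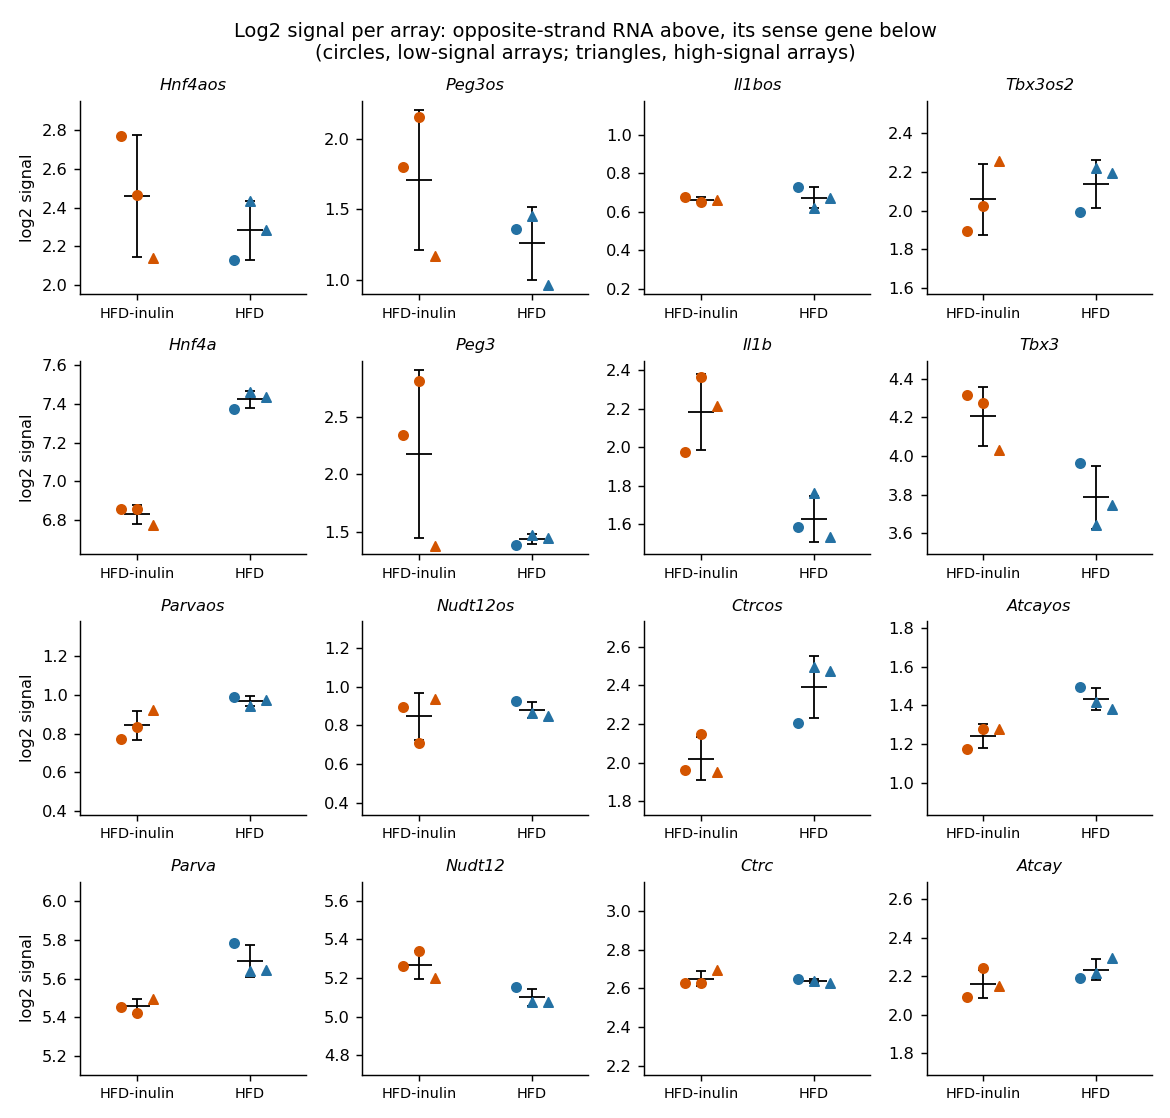
Log2 signal in each array (vertical axes, each at least 1 log2 unit tall and not starting at 0) for 8 opposite-strand RNAs and, below each, the sense gene, with HFD-inulin left of HFD. Points are arrays, circles for low-signal and triangles for high-signal arrays, and black marks show mean and SD (n = 3). Hnf4a, Il1b and Tbx3 separate the groups while Hnf4aos, Il1bos and Tbx3os2 do not, and Ctrcos separates them while Ctrc does not.

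The remaining members with the largest differences were all dim or overlapped between groups. Toporsos, a protein-coding member now called Smim27, measured 4.38, 4.10 and 4.14 in HFD-inulin arrays, against 4.14, 3.89 and 3.92 in HFD arrays (difference 0.23, 95% interval -0.03 to 0.48). Its partner Topors, a ubiquitin and SUMO ligase gene, measured 4.412, 4.387 and 4.396 in HFD-inulin arrays, against 4.32, 4.07 and 4.27 in HFD arrays (difference 0.18, 95% interval -0.02 to 0.37). Both were thus higher on average, but neither reached an unadjusted p of 0.05 (0.0733 and 0.0670). Egfros, inside the gene of the epidermal growth factor receptor, measured 0.88, 0.97 and 1.02 in HFD-inulin arrays, against 0.84, 0.85 and 0.54 in HFD arrays (difference 0.21). Egfr measured 6.78, 7.96 and 5.62 in HFD-inulin arrays and 6.51, 6.86 and 6.06 in HFD arrays, and its spread within the HFD-inulin group (SD 1.17) exceeded its difference of 0.31. Acss2os, inside the gene of the acetyl-CoA synthetase that acts outside mitochondria, had a difference of 0.21 and Acss2 one of -0.36. Within the low-signal arrays the differences were 0.00 and -0.72, and in the high-signal ones 0.48 and 0.01. Asb17os (0.21), Plekhd1os (0.21) and Pla2g10os (-0.21) had sense genes with small differences (-0.01, -0.02 and -0.01).

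The 10 brightest members had intervals that include 0, among them Toporsos and Pla2g10os. Zbtb11os1, whose sense gene Zbtb11 encodes a zinc finger protein and was not measured alone, had the highest mean (4.59) and a difference of -0.09. Fam120aos measured 4.28, 4.35 and 4.50 in HFD-inulin arrays, against 4.39, 4.45 and 4.42 in HFD arrays (-0.04), and Fam120a differed by -0.06. Ccpg1os, which RefSeq types as protein-coding, differed by 0.04 and Ccpg1 by 0.12. Lppos and Lpp, a LIM domain gene of focal adhesions, differed by 0.01 and -0.06. Gldnos (0.05), Sox6os (0.13), Hoxb5os (0.02) and the protein-coding Slc7a6os (0.15) are also of this set, and the intervals include 0 for their sense genes Gldn (0.04), Sox6 (-0.06), Hoxb5 (-0.06) and the amino acid transporter gene Slc7a6 (-0.04).

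The sense genes include many regulators of development, and their opposite-strand RNAs are described here beside the other members. Of 25 members that face such a regulator, 0 had an unadjusted p under 0.05 and 11 had a difference above 0, with a median of -0.009. Of their 23 measured sense genes, 1 did (Tbx3), and the median was -0.008. Of 139 other members 2 did, with a median of -0.019, and of their 127 measured sense genes 4 did, with a median of -0.017. The share was 5.15% of all probe sets, 2.66% of lncRNA genes and 4.81% of protein-coding genes, and 43.5% of all probe sets had a difference above 0. Counts in classes this small cannot set regulators of development apart from the rest, and the difference between the classes was not tested. Among the fixed hepatocyte factors, members exist for Hnf4a and Gata6 only. Gata6os measured 2.13, 2.39 and 2.19 in HFD-inulin arrays, against 2.18, 2.26 and 2.16 in HFD arrays (0.03, 95% interval -0.17 to 0.24). Gata6 measured 4.03, 4.76 and 3.69 in HFD-inulin arrays, against 3.80, 3.97 and 3.95 in HFD arrays (0.26, 95% interval -0.35 to 0.87), with its highest value in HFD-inulin array 2.

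Some members facing growth and metabolic genes of liver interest were chosen for their role after the values were seen. Igf1os measured 0.98, 1.21 and 0.95 in HFD-inulin arrays, against 1.07, 1.205 and 1.33 in HFD arrays (difference -0.15), and Igf1, the growth factor that the liver secretes, differed by 0.09 (95% interval -0.19 to 0.36). Igf2os and Igf2, an imprinted growth factor gene, differed by -0.05 and -0.08. Dnmt3aos, inside the gene of a de novo DNA methyltransferase, differed by 0.08 and Dnmt3a by 0.01. Rptoros differed by -0.12 and Rptor, which encodes a subunit of the kinase complex mTORC1, by -0.05. Hk1os differed by 0.04 and the hexokinase gene Hk1 by -0.00. The 95% interval included 0 for each of these 10 genes.

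Across the 155 pairs, the difference of the opposite-strand RNA had a weak relation to that of its sense gene. Its Pearson correlation depended on single pairs, those of Peg3 and Hnf4a. Pearson's r was 0.19 and Spearman's rho 0.11, as a description across pairs that all come from the same 6 arrays. Without the Peg3 pair r was 0.02 and rho 0.10, and with the Hnf4a pair left out too they were 0.10 and 0.12. Over all pairs but without HFD-inulin array 2, r was 0.02. Without HFD-inulin array 3 it was 0.28. Taken to the letter, a rule of a single platform symbol leaves 46 members and 42 pairs, in which r was 0.54, and 0.14 in the 41 without the Peg3 pair. The signs were the same in 83 pairs (53.5%), of which 57 were lower in both members and 26 higher in both. In 35 pairs the opposite-strand RNA was higher and the sense gene lower, and in 37 the reverse held. Differences above 0 made up 40.2% of the members and 42.0% of the sense genes. The share was 37.5% of lncRNA genes, 45.9% of protein-coding genes, 46.9% of named genes and 43.5% of all probe sets, and joint lower values were the most common combination. With array medians set equal this turned round, with 53 pairs higher in both members and 31 lower in both, and quantile normalization gave 49 and 37. Within the low-signal arrays r was 0.26 with the same sign in 91 pairs, and in the high-signal ones it was 0.03 with the same sign in 71.

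**Figure D3:**
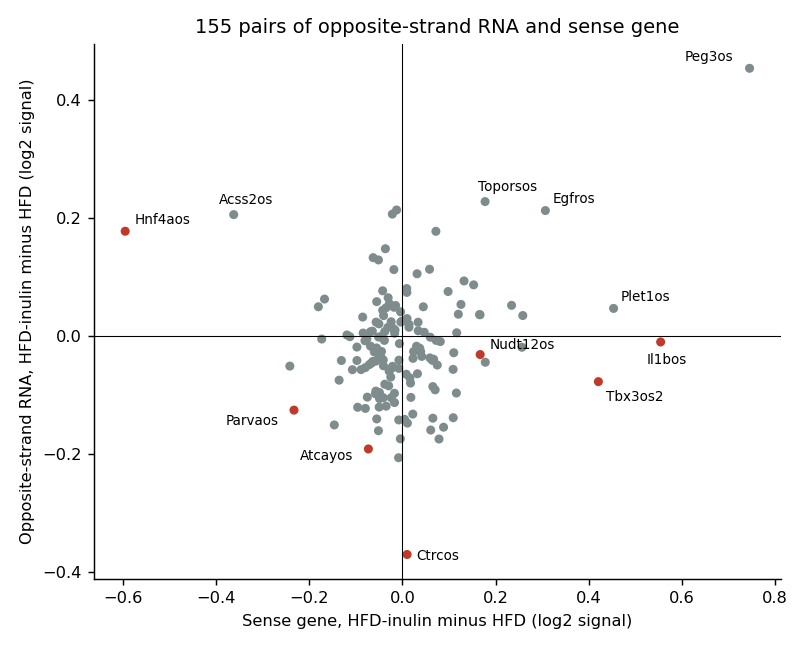
Difference (HFD-inulin minus HFD, log2 signal) of the sense gene (horizontal axis) and of its opposite-strand RNA (vertical axis) for 155 pairs, each point a pair, with red for pairs in which either member had an unadjusted p under 0.05. Most pairs crowd around 0, Peg3os lies alone at the upper right (0.75 and 0.45), and Hnf4aos at the left (-0.60 and 0.18).

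Pairs that start side by side had weak correlations too. Among the 24 pairs with starts within 250 bases on opposite strands, r was 0.11, rho 0.13, and 11 (45.8%) had the same sign. Among 83 pairs with starts farther apart, r was 0.00, rho 0.08, and 52 (62.7%) had the same sign. The median difference was -0.008 for the members and 0.025 for the sense genes of the near pairs, and -0.021 and -0.024 for those of the others. The difference between these classes was not tested. By placement, r was 0.03 in 27 head-to-head pairs, 0.03 in 41 that overlap in part and -0.01 in 36 with the member inside the sense gene. It was 0.45 in 48 pairs with a strand not listed, the class that holds Peg3os. At placements with both strands listed, 107 pairs in all, r was 0.02 and rho 0.12.

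**Figure D4:**
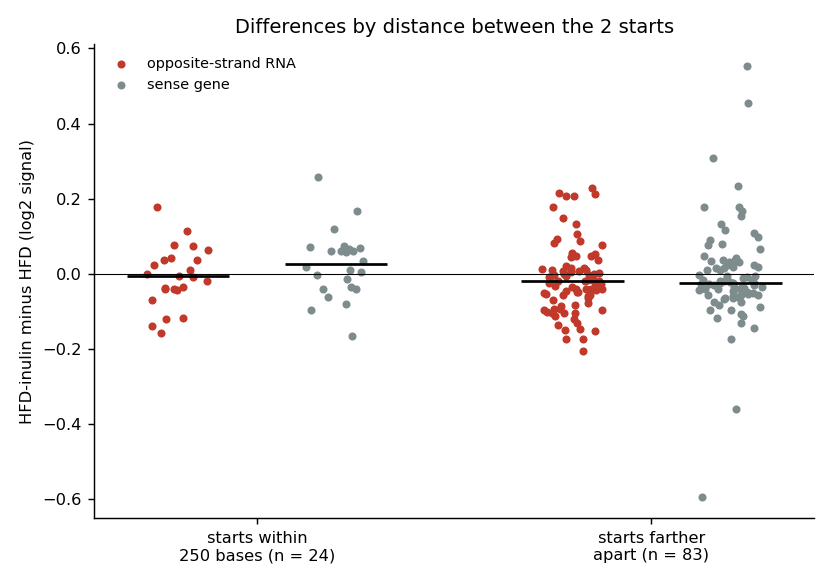
Difference (HFD-inulin minus HFD, log2 signal, vertical axis) of opposite-strand RNAs (red) and sense genes (grey) in 24 pairs whose starts lie within 250 bases on opposite strands and in 83 pairs that start farther apart. Each point is a gene and black bars are medians, which all lie between -0.024 and 0.025.

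Antisense lncRNAs named without the os ending were looked at as well. Of 9 listed, 6 were measured and 0 had an unadjusted p under 0.05, with a median difference of -0.005, and of their 9 partners 8 were measured, again with 0. The share was 5.15% of all probe sets and 2.66% of lncRNA genes, so a count of 0 in so few genes shows little. The largest difference was that of Gm15441, antisense to Txnip, which measured 7.65, 6.64 and 3.77 in HFD-inulin arrays, against 3.91, 4.26 and 3.76 in HFD arrays. Its difference of 2.04 (SE 0.91, limma adjusted p = 0.902) was the highest among the 3344 lncRNA genes, but the groups overlapped. Txnip, an inhibitor of thioredoxin and of glucose uptake, measured 6.73, 6.66 and 7.36 in HFD-inulin arrays, against 7.45, 7.48 and 7.19 in HFD arrays (difference -0.45, SE 0.19). Within the low-signal arrays the differences were 3.24 for Gm15441 and -0.75 for Txnip, and in the high-signal ones -0.24 and 0.03.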

How the data were processed

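Liver RNA of 6 samples was measured on 1 array each. Per the submitters' processing notes the authors used Affymetrix Expression Console 1.0, and the deposited values are read as log2 signals because of their range. The summarization of probes is not given in the sources used here, nor is the strand of the labelling or the genome build. No column was left out.

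Probe sets were named through GEO's platform annotation, with older symbols updated through RefSeq (GRCm38.p6). Of 32750 with a symbol, 31258 resolved to 1 gene and 1492 to several, which were not named. Of the members, 46 carry the opposite-strand symbol alone and the others list it with further symbols of the same gene. Placement and windows come from RefSeq tables, whose build need not be that of the array.

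Groups were compared with limma 3.58.1 (R 4.3.3, lmFit and eBayes, two-sided) on all 65956 probe sets with no filter and no covariate, and adjusted by Benjamini-Hochberg over all of them, at 0.05. The fit was tested on simulated data. The gap within a pair was tested by exact permutation over arrays. The number of arrays limits the precision, and no detection call was used.

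Members, lists and tests were chosen with earlier results of these data known. Values are named for members with an unadjusted p under 0.05 in either partner, the 10 with the largest difference, the 10 brightest, pairs apart in both partners and hepatocyte factor pairs. Alternatives were another prior, a filter on dim probe sets, other normalizations, array weights, blocks, each array left out, and other choices of probe set or pairs.

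Deviations from the group mean of same-numbered arrays correlated at 0.26, -0.28 and 0.40, and the labels link no animals across groups, so numbers were not read as pairs.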

Additional observations from a re-analysis of the deposited data

How the results depend on the processing

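No member and no sense gene passed an adjusted p of 0.05 under any of 23 other settings. Settings that only took a subset of the members from the main fit could give no other result. These were members listed under 1 symbol (with or without Peg3os), pairs on opposite strands in RefSeq, and all members without Peg3os. The count of members with an unadjusted p under 0.05, 2 in all 6 arrays, ran from 1 to 6 with each array left out. It was 5 with array weights (3.05%, against 7.46% of all probe sets), 10 with ordinary least squares (6.1% against 4.6%) and 4 with low and high signal as a block (2.44% against 5.19%). Within low-signal arrays it was 4 (2.44% against 5.64%) and within high-signal arrays 9 (5.49% against 6.58%). The members' share lay below that of all probe sets in 17 of 18 fits, ordinary least squares being the exception. The members' count was 0 at a threshold of 0.01, for which no share of all probe sets is given here. At 0.05 it was 0 among the 107 pairs on opposite strands in RefSeq. It was also 0 among the 46 members listed under 1 symbol (the literal reading of the rule, computed after seeing the data), with or without Peg3os. The share was 5.15% of all probe sets in that fit, and counts of 0 in such small sets were not tested against it. The count of sense genes, 5, ran from 4 to 12 with each array left out. It was 10 with array weights (6.67%, against 7.46% of all probe sets) and 10 with ordinary least squares (6.67% against 4.6%). With a trended and robust prior it was 3 (2.0% against 4.96%). In the main fit it was 2 on opposite strands in RefSeq and 0 among the 46. Over all probe sets the 3399 with an unadjusted p under 0.05 became 1873 without dim probe sets, and 2100 to 6525 with each array left out. The correlation across pairs, 0.19, ran from 0.023 to 0.28 with each array left out. It was 0.098 with that block, 0.034 among high-signal arrays, 0.021 on opposite strands in RefSeq, 0.0227 without Peg3os and 0.54 among 42 pairs of the members listed under 1 symbol, and 0.14 in 41 of them without Peg3os. The cause of these shifts was not tested.

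With the replicate number as a block in limma, 3 members (1.83%) and 7 sense genes (4.67%) had an unadjusted p under 0.05, against 5.08% of all probe sets. In that fit the correlation across pairs was 0.19, and the unadjusted p of Atcayos (0.0640) and Nudt12 (0.0758) lay above 0.05. The gap between Hnf4aos and Hnf4a was 0.93 after quantile normalization. Hnf4a and Il1b kept their direction and an unadjusted p under 0.05 in all 19 other fits, of which the fits within low-signal and within high-signal arrays each have a lone array in 1 group that is assumed to vary like the rest, Ctrcos in 18 (not within the low-signal arrays), Tbx3 in 18, Parva in 17, Atcayos in 11 and Nudt12 in 9. The 3 arrays per group and the dim signal of most members limit what can be seen.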
